A study of Mus musculus with 10 samples.

Results

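Broad H3K4me3 domains are the widest stretches of trimethylated lysine 4 on histone H3 in F123 mouse embryonic stem cells. They were chosen by their measured width alone, as all peaks of the deposited H3K4me3 ChIP-seq list on chromosomes 1 to 19 that span at least 5000 bp. This width gave 403 domains of the 32496 autosomal peaks (1.24%), in a list of 33487 peaks. F123 is a hybrid line from a cross of Mus musculus castaneus with S129/SvJae mice and is the only line of the series. The cells grew on irradiated CF1 mouse embryonic fibroblasts in medium with knockout serum replacement and LIF and were passaged once without this feeder layer before harvest. ChIP-seq was done on 2000000 fixed cells and ATAC-seq on 100000 fresh cells per sample, in 2 biological replicates each. Each assay is represented here by 1 list of peaks found in both replicates, so no value has a spread between replicates, and the depth of each library is unknown. All intervals given are 95% intervals over regions or genes, cover counting error only, and treat neighbouring regions as if they were independent.

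H3K4me3 is laid down around active and poised gene starts by the SET1/MLL methyltransferases, which are drawn to stretches of unmethylated CpG dinucleotides. At most genes the mark forms a short block on both sides of the start, where the nucleosome-free gap of the promoter opens the DNA to the transposase used in ATAC-seq. Unusually wide blocks are known from genes that define a cell type, from very active genes and, in embryonic stem cells, from developmental regulators that also carry polycomb marks.

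The sequences below show the range of DNA under the domains. Each holds 300 bases of the reference genome (GRCm38, strain C57BL/6J, so not the alleles of F123), from 270 bases before the gene start to 30 bases from it, 5′ to 3′, with every CpG in capitals. Trim71 has the widest domain with a single start for which no annotated exon or earlier RefSeq start lay in the stretch. Arid1a, Rps15a, Mycn and Pou5f1 stand for a chromatin remodeller, a ribosomal protein and a pair of stem cell factors. By the same condition, Qk and Cdkn1a have the highest and the lowest ratio of observed to expected CpG around the start. They were chosen after their values were seen. The last entry is instead centred on the summit of the widest domain without any annotated start.
Trim71, chr9:114564340-114564639, minus strand: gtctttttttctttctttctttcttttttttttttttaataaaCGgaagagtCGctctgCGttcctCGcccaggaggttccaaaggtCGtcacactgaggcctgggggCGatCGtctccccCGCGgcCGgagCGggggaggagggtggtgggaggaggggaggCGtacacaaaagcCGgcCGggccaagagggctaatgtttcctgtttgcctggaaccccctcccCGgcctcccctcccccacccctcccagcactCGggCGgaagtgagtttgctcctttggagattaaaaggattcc
Arid1a, chr4:133756740-133757039, minus strand: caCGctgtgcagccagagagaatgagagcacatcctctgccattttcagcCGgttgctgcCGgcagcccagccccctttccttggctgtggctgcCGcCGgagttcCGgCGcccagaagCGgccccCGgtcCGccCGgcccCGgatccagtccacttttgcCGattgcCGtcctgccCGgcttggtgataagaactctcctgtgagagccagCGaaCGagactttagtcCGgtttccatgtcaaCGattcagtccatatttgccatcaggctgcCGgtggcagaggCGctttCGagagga
Rps15a, chr7:118116159-118116458, minus strand: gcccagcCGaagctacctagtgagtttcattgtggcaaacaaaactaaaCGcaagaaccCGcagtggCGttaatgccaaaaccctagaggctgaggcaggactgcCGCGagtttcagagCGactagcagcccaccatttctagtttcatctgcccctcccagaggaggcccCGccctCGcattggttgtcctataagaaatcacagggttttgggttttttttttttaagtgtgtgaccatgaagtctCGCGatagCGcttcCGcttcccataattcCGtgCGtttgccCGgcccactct
Mycn, chr12:12941885-12942184, minus strand: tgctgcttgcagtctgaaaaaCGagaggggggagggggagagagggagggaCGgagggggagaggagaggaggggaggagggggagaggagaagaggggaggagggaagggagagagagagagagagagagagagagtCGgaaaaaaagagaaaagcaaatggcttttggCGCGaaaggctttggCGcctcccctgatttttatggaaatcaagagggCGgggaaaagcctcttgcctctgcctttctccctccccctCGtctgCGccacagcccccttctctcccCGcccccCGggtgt
Pou5f1, chr17:35505748-35506047, plus strand: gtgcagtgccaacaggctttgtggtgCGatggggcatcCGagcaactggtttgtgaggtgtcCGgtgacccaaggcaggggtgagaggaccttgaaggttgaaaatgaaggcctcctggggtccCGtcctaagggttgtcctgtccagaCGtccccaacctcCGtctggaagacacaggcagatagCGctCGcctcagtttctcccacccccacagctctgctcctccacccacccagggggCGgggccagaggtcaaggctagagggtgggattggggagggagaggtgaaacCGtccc
Qk, chr17:10319825-10320124, minus strand: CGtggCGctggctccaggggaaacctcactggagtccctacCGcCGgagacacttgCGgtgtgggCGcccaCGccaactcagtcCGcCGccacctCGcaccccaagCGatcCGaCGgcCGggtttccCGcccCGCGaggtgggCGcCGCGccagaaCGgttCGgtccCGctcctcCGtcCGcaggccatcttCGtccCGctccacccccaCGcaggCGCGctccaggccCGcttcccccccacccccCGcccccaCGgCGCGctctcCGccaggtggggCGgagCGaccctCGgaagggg
Cdkn1a, chr17:29090706-29091005, plus strand: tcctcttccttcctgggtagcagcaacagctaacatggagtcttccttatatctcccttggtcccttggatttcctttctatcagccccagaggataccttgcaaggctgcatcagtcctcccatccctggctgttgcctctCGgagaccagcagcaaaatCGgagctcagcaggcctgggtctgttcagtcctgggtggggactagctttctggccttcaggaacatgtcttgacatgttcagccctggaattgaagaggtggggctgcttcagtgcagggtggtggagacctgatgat
Summit without a gene start, chr13:21171878-21172177, plus strand: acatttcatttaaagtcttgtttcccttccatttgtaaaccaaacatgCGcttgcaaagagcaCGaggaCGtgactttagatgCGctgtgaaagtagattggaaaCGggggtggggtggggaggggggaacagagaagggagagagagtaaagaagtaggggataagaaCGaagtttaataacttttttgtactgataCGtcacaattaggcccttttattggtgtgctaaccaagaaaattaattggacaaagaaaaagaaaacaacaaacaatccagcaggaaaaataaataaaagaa
The Qk stretch held 39 CpGs, the Arid1a stretch 22 and the Trim71 stretch 17. The Pou5f1 stretch held 10 and the Cdkn1a stretch 2. At Cdkn1a 91.2% of the domain lay downstream of this most upstream start, and whether another start of the gene is the one in use was not tested.

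Domain width had a median of 5754 bp, with 5007 bp as the lowest value. Only 5 reached 10 kb and 31 reached 8000 bp, while 236 (58.6%) were under 6000 bp. They covered 2.47 Mb, which was 5.23% of all autosomal H3K4me3 peak sequence. The fold enrichment that the authors' peak caller gave at the summit had a median of 35.8 and ran from 6.31 to 68.9. Width therefore did not come with a single level of enrichment. No gap in the data marked the limit of 5000 bp. Just inside it lay the domains of Sesn2 (5014 bp), Eif3a (5013 bp) and Hmga2 (5007 bp), and just outside it those of Lzts2 (4997 bp), Mllt3 (4993 bp) and Osr2 (4988 bp). Chromosome 11 held the most domains, 42 or 0.344 per Mb, and chromosome 16 the fewest, 5 or 0.0509 per Mb.

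The cell type was checked on the marker genes of embryonic stem cells. An H3K4me3 peak of any width lay on the start of 62.4% of all autosomal protein-coding genes. Of 10 stem cell markers, 9 had one and 6 had a broad domain, namely Sox2 (8186 bp), Zfp42 (5764 bp), Tdgf1 (5526 bp), Klf4 (5242 bp), Lin28a (5092 bp) and Pou5f1 (5078 bp). Nanog, at 4301 bp, fell below the width limit. Of 10 fibroblast markers, 7 had a peak, 271 bp (Dcn) to 4602 bp (Fn1) wide, and none had a broad domain. Whether H3K4me3 at these genes comes from residual feeder cells was not tested. None of 6 markers of other lineages, such as Alb of hepatocytes, had an H3K4me3 peak, but Cd3e of T cells and Gfap of astrocytes had an ATAC-seq peak at the start.

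The widest domain is not reported here. Among the next, 11177 bp covered the start of Setd1b, which encodes a subunit of an H3K4 methyltransferase complex, and held 8 ATAC-seq peaks. A domain of 10792 bp lay inside the imprinted Gnas locus and covered the start of the antisense transcript Nespas, and 10629 bp covered Trim71, an RNA-binding regulator of early development. Ltbp4, which binds latent TGF-beta, had a domain of 10120 bp at an internal transcript start.

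Below 10 kb came a mixed set of genes. Domains of 9920 bp, 9526 bp and 9246 bp covered the starts of Mllt6, of the transcriptional repressor Hic1 and of the zinc finger gene Zfp516. A domain of 9697 bp spanned the starts of Hes7, a repressor of the somite clock, of the lipoxygenase gene Aloxe3 and of 9130213A22Rik. Others of the 15 widest lay on Mgme1 and Snx5 (9235 bp), on the noncoding RNA gene C230035I16Rik (9082 bp, with Abt1 as the nearest protein-coding start, 5800 bp away), on the endoderm factor Gata6 (8982 bp), on Nek8, Tlcd1 and Rpl23a (8962 bp), on A830031A19Rik and Bcl11a (8745 bp), and on H2-DMa and Brd2 (8578 bp). Their fold enrichment ran from 17.6 at Gata6 to 54.9 at Brd2, so developmental regulators and housekeeping genes stood side by side at the top of the list.

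Most domains were promoter domains. A protein-coding gene start, taken as the most upstream 5′ end of the gene in GENCODE M21, lay in 333 of 403 domains (82.6%, 95% Wilson interval 78.6 to 86.0%), against 36.0% of all autosomal peaks. The share rose from 4.71% in peaks under 1000 bp to 76.6% in peaks of 2 to 3 kb and was then nearly level, with 81.6% at 3 to 4 kb and 82.6% at 4 to 5 kb. Of the 333 domains, 275 covered 1 start, 52 covered 2 and 6 covered 3, in all 397 genes (1.91% of 20807). The domains with 3 starts lay on Nek8, Tlcd1 and Rpl23a, on Hcfc1r1, Thoc6 and Tnfrsf12a, on Hes7, Aloxe3 and 9130213A22Rik, on the histone genes Hist1h2af, Hist1h3g and Hist1h4h, on Cyb5d1, Naa38 and Tmem88, and on B3galt4, Rps18 and Vps52. Head-to-head gene pairs with starts no more than 1000 bp apart were found in 19 of the 333 (5.71%) and in 606 of 11356 narrower promoter peaks (5.34%), a difference of 0.369 percentage points with a Newcombe interval of -1.70 to 3.43. The share was 1.81% in peaks of 1 to 2 kb but 7.69% at 2 to 3 kb, 9.63% at 3 to 4 kb and 8.80% (6.72 to 11.4%) at 4 to 5 kb, with an interval of 3.68 to 8.74% for the domains.

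The other 70 domains had no protein-coding gene start, but 43 of them covered the start of another transcript of a protein-coding gene. These included Ltbp4, the kinase gene Sgk1 (8079 bp), Set (7908 bp), the retinoic acid receptor genes Rarg (7842 bp) and Rara (7017 bp), the homeobox gene Otx2 (7563 bp) and Cyp26b1 (7314 bp), which encodes an enzyme that degrades retinoic acid. Of the remaining 27 domains, 14 covered a start of another gene type, such as Malat1 (8419 bp), Dleu2 (7753 bp), Mir17hg, the host of a growth-promoting microRNA cluster (5206 bp), and the hosts of the neuronal microRNA genes Mir124a-1 (5614 bp) and Mir124a-3 (6174 bp). Only 13 domains held no start of either kind, 5 of them within a protein-coding gene and 8 between such genes. The widest of these lay 5346 bp from Trim27 (7559 bp wide), inside Etv5 (7338 bp) and 2056 bp from Ebf3 (6824 bp). Small nucleolar RNA genes were dense in the domains, with 51 starts in 15 domains or 20.6 per Mb, against 2.32 per Mb in narrower promoter peaks. Most snoRNAs are cut from introns of host genes and so lie close together, so these 51 are not independent.

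The domains reached further into the gene than away from it. Over the 275 domains with 1 protein-coding start, a median of 4213 bp lay downstream of the start (interval 4050 to 4372) and 1554 bp upstream (1363 to 1734). Downstream sequence made up a median of 74.4% of the width (71.4 to 76.8%). In the bands of narrower peaks it ranged from 67.6% (2 to 3 kb) to 72.2% (4 to 5 kb). Both sides were longer than in narrower peaks, which is largely given by the limit on width. The balance between them moved by only a few percentage points. The summit lay downstream of the start in 235 of the 275 (85.5%, 80.8 to 89.1%), less often than in peaks of 1 to 2 kb (92.4%, 91.5 to 93.2%), while the interval at 4 to 5 kb (90.6%, 87.5 to 92.9%) overlaps that of the domains. Its median position was 403 bp downstream, against 318 bp in peaks of 4 to 5 kb and 197 bp in peaks of 1 to 2 kb. When all annotated transcript starts of the gene were averaged, the downstream share was 63.3%.

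**Figure D1:**
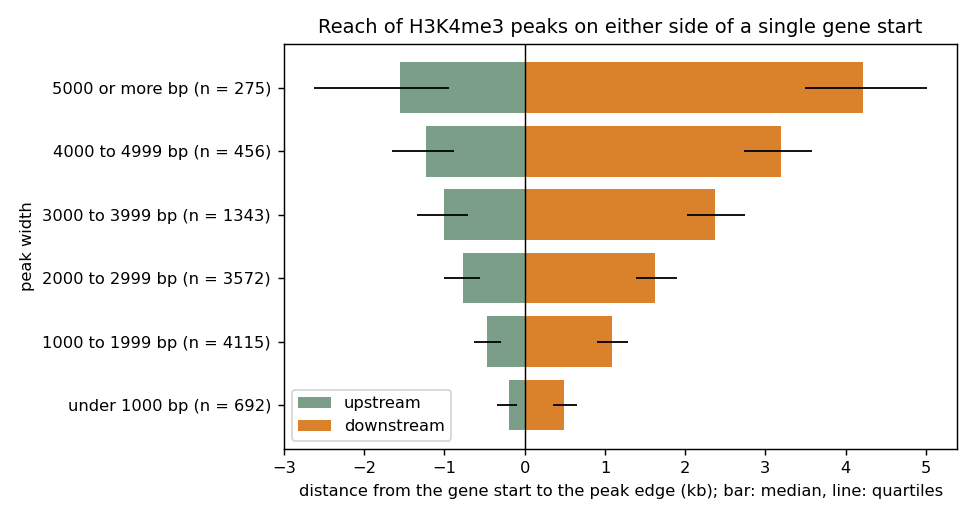
Median distance from a single protein-coding gene start to the upstream (left) and downstream (right) edge of its H3K4me3 peak, in kb, by peak width, with quartiles as lines and the number of peaks in brackets. In the domains of 5000 bp or more the median reach was 4213 bp downstream and 1554 bp upstream.

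Single genes departed widely from this shape. At Sall4, a zinc finger factor of pluripotent cells, 99.6% of a domain of 7001 bp lay downstream of the start, with 26 bp upstream. Bahcc1 (99.6%), Alkbh5 (98.2%), which encodes an RNA demethylase, the stress gene Sesn2 (98.1%) and Sfpq (97.9%), which encodes a splicing factor, were close to it. At the other end stood the neural regulator Prdm12 with 23.8% downstream, 5730596B20Rik with 24.6%, the amino acid transporter gene Slc3a2 with 27.5%, Setd1b with 28.4% and Zbtb37 with 29.5%. Each of these 5 domains also held the start of at least 1 noncoding gene, of which Snhg1 beside Slc3a2 and Gas5 beside Zbtb37 are hosts of snoRNAs.

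The covered genes were shorter than those under narrower peaks. Their median length was 15183 bp (12099 to 19612) against 24888 bp (24228 to 25483) for genes with a narrower peak at the start and 25080 bp (21457 to 28145) for those with a peak of 4 to 5 kb, and they had a median of 5 exons against 8. Genes without an H3K4me3 peak at the start were shorter still, with a median of 9412 bp (9055 to 9755). The peak covered a median of 24.7% of the gene in broad domains and 5.37% in narrower peaks. The whole gene lay inside the domain for 52 of 397 genes (13.1%) and inside the peak for 241 of 12578 genes with a narrower peak (1.92%), a difference of 11.2 percentage points (8.20 to 14.9). A wider peak holds more genes whole by its size alone, so this share is not a property apart from width. Sox2 and Rpl18 were among these genes. Single-exon transcripts began at 34 of 355 starts (9.58%) in broad domains and at 394 of 11092 in narrower peaks (3.55%), which differ by 6.03 percentage points (3.36 to 9.55). In peaks of 4 to 5 kb the share was 4.07% (2.75 to 5.98%). The downstream edge lay in the first intron in 92 of 255 single-start domains with an annotated coding transcript at the start (36.1%) and beyond the end of that transcript in 40 (15.7%). In peaks of 4 to 5 kb these shares were 52.4% and 8.78%, and in peaks of 1 to 2 kb 75.7% and 1.201%. A wider peak also ends further along the gene by its size alone, so these shares are not apart from width either.

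The genes under broad domains were compared with 21 gene lists, for which 1.91% of all protein-coding genes is the background. That background includes genes without any H3K4me3 peak at the start. A peak of any width lay on 12975 of the 20807 starts, and 397 of these were in a broad domain. A list in which most genes have a peak can therefore stand above 1.91% for that reason alone. The lists were chosen with results of these data known, and the counts are descriptive. Pluripotency factors had the highest share, with 15 of 34 genes (44.1%, 28.9 to 60.6%), led by Trim71, Sox2, Tbx3 (7846 bp), Gbx2 (7709 bp), Mycn (7280 bp), Sall4, Jarid2 (6895 bp) and Myc (5916 bp). Immediate early and AP-1 genes, which respond to growth signals within minutes, followed with 11 of 28 (39.3%), including Zfp36l1 (7670 bp), Egr3 (6950 bp), Ier2 (6757 bp), Ier5l (6706 bp), Egr2 (6249 bp), Mcl1 (6127 bp) and Egr1 (5828 bp). An H3K4me3 peak of any width lay on the start of 28 of the 34 pluripotency factors and 26 of the 28 immediate early genes. Some genes stand in more than 1 list, such as Sox2, Tbx3 and Myc.

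Developmental transcription factors were also present. Of homeobox regulators outside the Hox clusters 21 of 122 (17.2%) lay in a broad domain, among them Lhx1 (8437 bp), Irx3 (8351 bp), Nkx6-1 (8251 bp), Meis2 (8204 bp), Onecut2 (8185 bp), Pou3f3 (6693 bp) and Irx5 (6692 bp). Sox factors had 4 of 18 (Sox2, Sox11, Sox4 and Sox21), forkhead factors 5 of 41 (Foxb1, Foxc1, Foxa2, Foxa1 and Foxo3) and T-box, GATA and basic helix-loop-helix factors 4 of 58 (Gata6, Tbx3, Id2 and Eomes). None of 39 Hox genes had its start in a broad domain, although 34 had an H3K4me3 peak at the start. This counts gene starts only, so a broad domain elsewhere in a Hox cluster would not enter it. Their peaks had a median width of 2432 bp and overlapped no broad domain at the gene start. Signalling genes gave 8 of 42 for the Wnt list, with the receptor genes Fzd5 (6661 bp), Fzd10 (6494 bp), Fzd2, Fzd7 and Fzd8, the ligand gene Wnt3 (6518 bp), the feedback inhibitor gene Axin2 and the nuclear factor gene Lef1. For the FGF, Nodal and BMP list it was 9 of 59, led by the inhibitor genes Smad7 (8212 bp) and Spry2 (7366 bp), then Id2 (7252 bp), Fgf9 (6953 bp), Bmp4 (6525 bp), Fgf11 (6367 bp), Fgfr2 (6003 bp) and the Nodal co-receptor gene Tdgf1. The start of Fgfr2 counted here is its most upstream annotated end, in the same domain as the start of Ctbp2. Fgfr2 is annotated as 2960900 bp long, and 0.128% of it lay in the domain. Whether this start is in use was not tested.

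Housekeeping groups differed among themselves. Splicing SR protein and hnRNP genes had 12 of 49 in broad domains (24.5%, 14.6 to 38.1%), led by Hnrnpa2b1 (8334 bp), Hnrnpdl (6851 bp), Hnrnpu (6293 bp) and Hnrnpd (6124 bp), and cytosolic ribosomal protein genes 12 of 73 (16.4%), led by Rpl23a, Rpl7 (6927 bp), Rpl18 (6895 bp), Rps18 (6770 bp) and Rps15a (6591 bp). Proteasome subunits had 0 of 32 (which allows up to 10.7%) and respiratory chain subunits 1 of 68, Ndufb10. These genes did carry the mark, since 29 of 32 and 66 of 68 had an H3K4me3 peak at the start, but their median widths were 2416 and 2324 bp. Among chromatin genes, 7 of 47 polycomb and trithorax genes lay in broad domains (among them Setd1b, Jarid2, Kdm2b and Eed), but only Arid1a and Arid2 of 43 genes for DNA methylation, BAF and NuRD.

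Cell cycle genes had 4 of 40 (Ccnd2, Cdkn1a, Ccnd1 and Cdk6). Imprinted genes had 3 of 41 (Peg3 and Usp29 in a single domain, and Gnas in its narrower domain of 5028 bp). Histone genes had 3 of 67, all in a single domain. Genes with a Zfp number in the symbol had 14 of 385 (3.64%), Zfp516 the widest, and 326 of the 385 had an H3K4me3 peak at the start. No keratin of 53 and no olfactory or vomeronasal receptor of 1455 had a start in a broad domain. Only 9 and 2 of these had any H3K4me3 peak at the start.

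**Figure D2:**
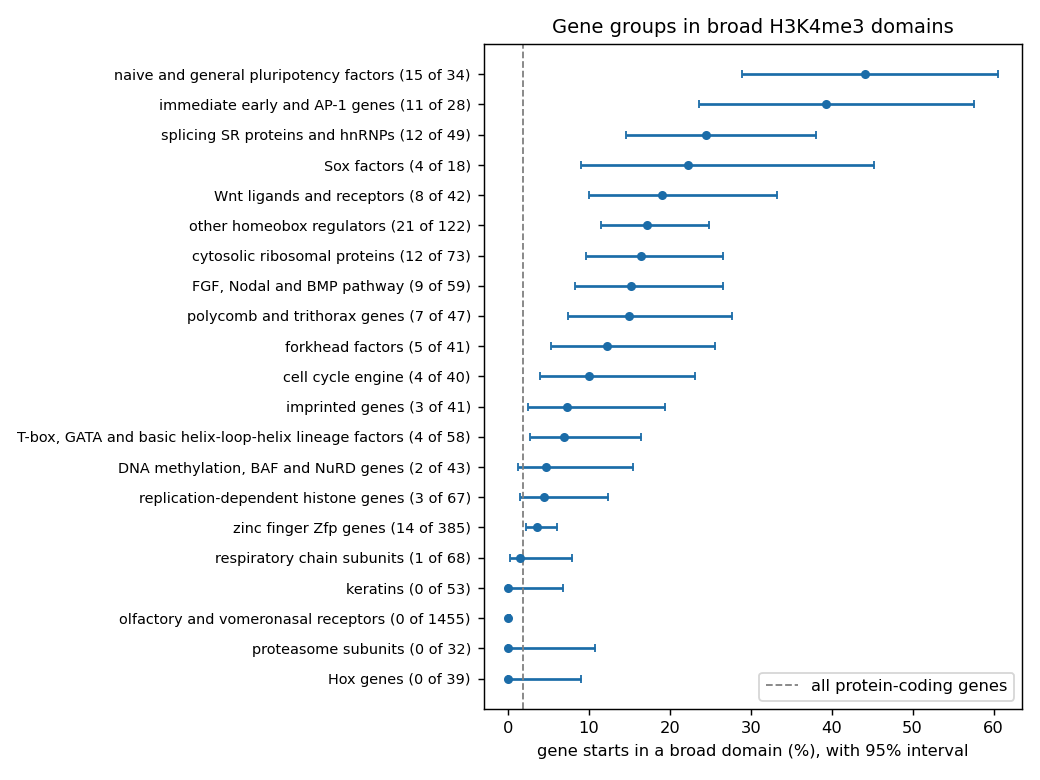
Percent of the genes of each list whose start lies in a broad domain (points, counts in brackets) with 95% Wilson intervals, and the share of all protein-coding genes as a dashed line (1.91%). Pluripotency factors (15 of 34) and immediate early genes (11 of 28) stand at the top, while Hox, proteasome, keratin and receptor genes stand at 0.

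Every broad domain held open chromatin. All 403 overlapped an ATAC-seq peak by 1 bp or more, against 87.0% of all autosomal H3K4me3 peaks and 99.5% of narrower promoter peaks. They held 1 to 11 ATAC-seq peaks, with a median of 3. Of the 403, 58 (14.4%) had 1 peak, 92 had 2, 96 had 3, 79 had 4 and 42 had 5. Per kb the median was 0.504 peaks over all domains and 0.494 (0.463 to 0.550) over the 333 promoter domains, compared with 0.469 (0.455 to 0.480) in promoter peaks of 4 to 5 kb and 0.456 (0.453 to 0.460) in those of 2 to 3 kb. Above 2 kb the number of ATAC-seq peaks thus grew about in step with width.

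The open share of the domain did not grow with width. ATAC-seq peaks covered a median of 28.6% of a broad domain (27.9 to 29.6%), 34.5% of a promoter peak of 4 to 5 kb and 52.9% of one of 1 to 2 kb. The longest stretch without an ATAC-seq peak had a median of 2333 bp in broad domains, which is longer than the median narrower promoter peak (2122 bp). The domains densest in ATAC-seq peaks were those of Cpt1a, the rate-limiting enzyme gene of fatty acid oxidation, with 8 peaks in 5038 bp (1.59 per kb), around Mir124a-3 (8 peaks, 1.296 per kb), of the ephrin gene Efna5 (7 peaks, 1.29 per kb), of Cyp26b1 (9 peaks, 1.23 per kb) and of the neural factor gene Pou3f2 (7 peaks, 1.22 per kb).

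ATAC-seq peaks spread to both sides of the gene start. From 2500 to 2750 bp downstream, 21.9% of the 397 starts in broad domains had an ATAC-seq peak (18.1 to 26.2%), against 4.03% of 4522 starts in peaks of 1 to 2 kb (3.49 to 4.64%) and 11.5% of 667 starts in peaks of 4 to 5 kb (9.34 to 14.2%). From 1750 to 2000 bp upstream it was 19.7% in broad domains, 4.33% in peaks of 1 to 2 kb and 12.1% in peaks of 4 to 5 kb. In the first 250 bp downstream the order was turned, with 92.2% (89.1 to 94.4%) in broad domains and 98.3% in peaks of 1 to 2 kb. Peaks of 4 to 5 kb had 94.3% there (92.3 to 95.8%), an interval that overlaps that of the broad domains. The profile of the broad domains was thus wider and slightly lower at its centre than that of peaks of 1 to 2 kb. Peaks of 4 to 5 kb lay between the 2 in these bins.

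**Figure D3:**
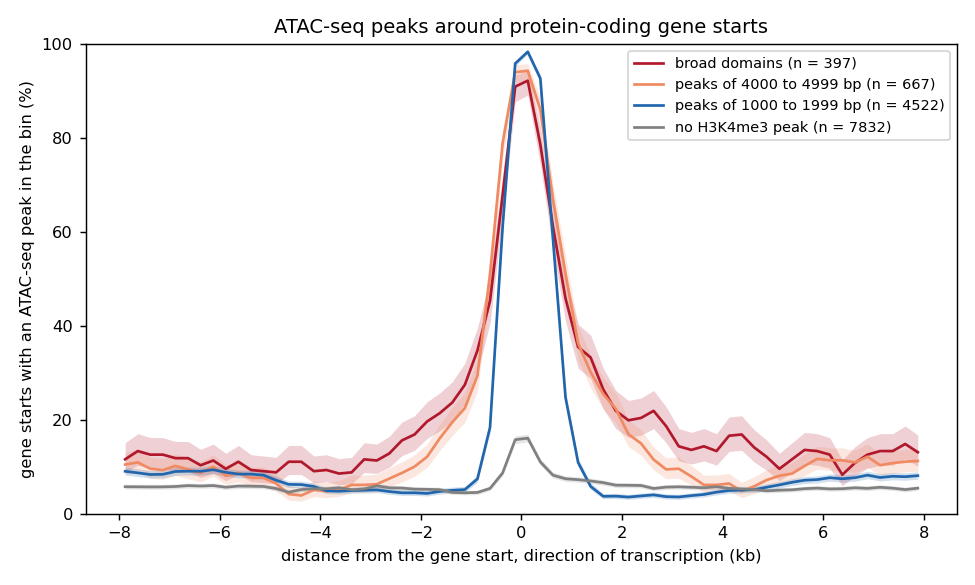
Percent of protein-coding gene starts with an ATAC-seq peak in each 250 bp bin, by distance from the start in kb along the direction of transcription, for 4 groups of H3K4me3 width, with 95% Wilson intervals as bands. Broad domains keep 21.9% at 2500 to 2750 bp downstream, where peaks of 1 to 2 kb have 4.03%.

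The start itself was less often covered. An ATAC-seq peak lay on 347 of 397 gene starts in broad domains (87.4%, 83.8 to 90.3%) and on 11819 of 12578 in narrower peaks (94.0%), a difference of -6.56 percentage points (-10.2 to -3.62). Over all protein-coding genes the share was 63.6%, and without an H3K4me3 peak it was 13.5%. By width the share was 94.98% at 1 to 2 kb, 94.9% at 2 to 3 kb, 93.1% at 3 to 4 kb and 90.3% at 4 to 5 kb, and it was also low, 86.8%, in peaks under 1000 bp. The interval at 4 to 5 kb, 87.8 to 92.3%, overlaps that of the broad domains, so the step at 5000 bp itself is not resolved. The direction was the same in only 13 of 19 autosomes, some of which had few genes in broad domains. With single-start peaks alone the shares were 85.5% and 94.0%. With a peak within 500 bp of the start counted, they were 96.2% and 98.9%, a smaller difference of -2.66 percentage points (-5.03 to -1.17). Taking every annotated transcript start inside the peaks gave 77.3% of 1663 in broad domains and 92.6% of 40135 in narrower peaks, a difference of -15.3 percentage points. A wider peak takes in transcript starts further from the gene start by its size alone, so this difference is not apart from width. In gene groups, which have few starts in broad domains and no interval here, the order of the shares varied and is not resolved. For developmental transcription factors the share was 28 of 34 in broad domains (82.4%) and 164 of 214 in narrower peaks (76.6%). For ribosomal protein and splicing genes it was 22 of 24 (91.7%) and 85 of 89 (95.5%).

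**Figure D4:**
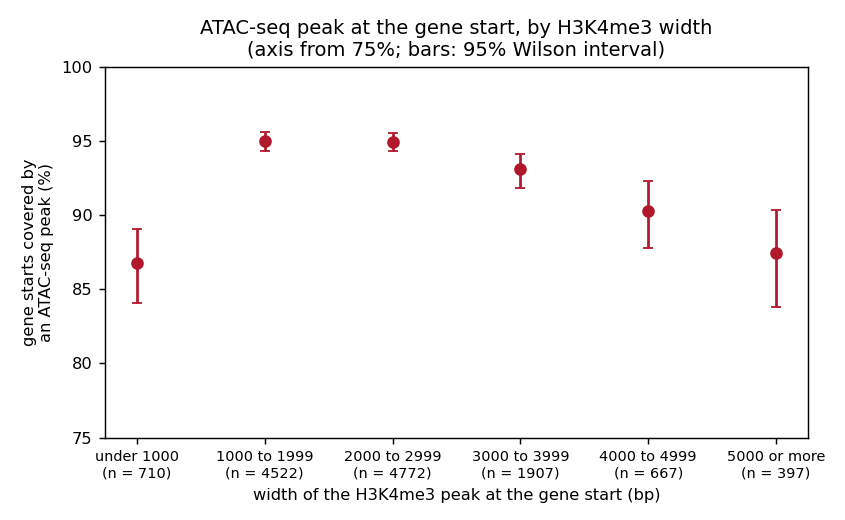
Percent of protein-coding gene starts covered by an ATAC-seq peak, by width of the H3K4me3 peak at the start, with 95% Wilson intervals and the number of starts in brackets. The axis begins at 75%. The share falls from 94.98% at 1 to 2 kb to 87.4% in broad domains.

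Of the 50 uncovered starts, 35 had an ATAC-seq peak within 500 bp, which leaves 15. These 15 included Sall4, Otx1, Dlx1, Id2, Fgf11, Hes7, Zfp532, Zfp536 and Alkbh5 of the genes named above or in the lists. Their domains held 1 to 8 ATAC-seq peaks, with 8 at Hes7, 5 at Sall4 and Id2, and 1 at Alkbh5, Otx1, Shh and Tmem69. Whether another transcript start is the one in use at these genes was not tested.

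Domains with higher enrichment held fewer ATAC-seq peaks. The domains were split by fold enrichment into 4 groups of nearly equal size. In the lowest group (6.31 to 25.4) the median was 4 ATAC-seq peaks per domain, and in the highest (45.7 to 68.9) it was 2. Median width was 5964 and 5492 bp in this order, and the number per kb was 0.628 and 0.376. The share of sequence in ATAC-seq peaks was 28.2% and 28.6%, so the open sequence was divided over more peaks in the lowest group. CpG-island-like sequence, defined as 200 bp windows with at least 50% GC and a CpG observed over expected ratio of at least 0.6, covered a median of 3550 bp in the lowest group and 1930 bp in the highest. ATAC-seq peaks lay on 64 of 82 gene starts (78.0%) in the lowest group and on 104 of 114 (91.2%) in the highest. Fold enrichment comes from the list that chose the domains, so its order is a description.

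The gene groups followed this order. The lowest group held 23 starts of the developmental transcription factor lists and no ribosomal protein or splicing factor start, while the highest held 0 and 15. Over the 34 domains of the developmental factors the median fold enrichment was 23.3, with 3 ATAC-seq peaks and 4265 bp of CpG-island-like sequence. Over the 24 domains of the ribosomal protein and splicing genes it was 48.2, with 2 ATAC-seq peaks and 2025 bp. The differences in enrichment and in ATAC-seq peak number were not limited to broad domains. In narrower peaks of the same lists the median enrichment was 16.4 and 47.5, with 2 and 1 ATAC-seq peaks. Examples were Dbx1 (6.31), a homeobox gene with the lowest enrichment of all domains, Foxb1 (14.7) and Gata6 (17.6) on one side, and Hnrnpu (63.5) and Rpl18 (68.9), the highest, on the other. Dbx1 was chosen after its value was seen.

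**Figure D5:**
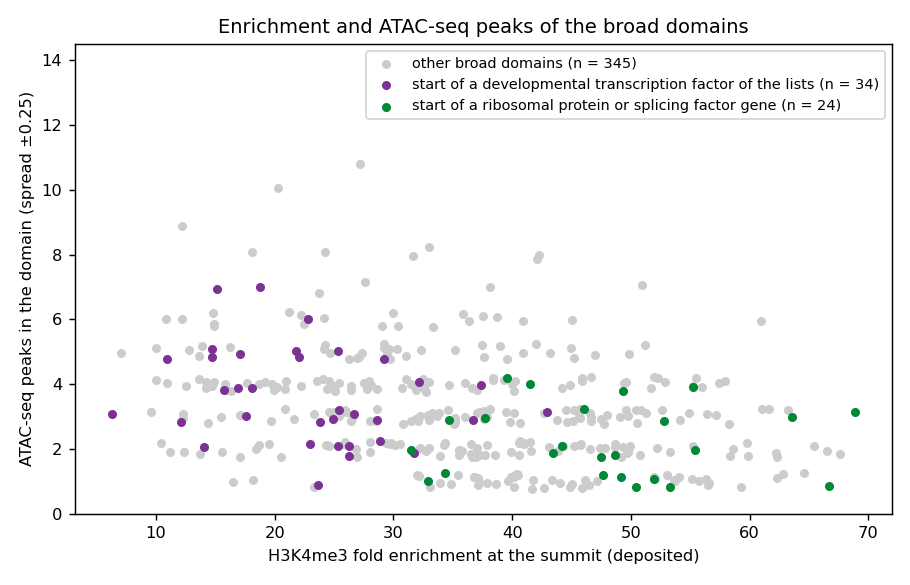
Number of ATAC-seq peaks (vertical, points spread by up to 0.25 to separate them) against the deposited H3K4me3 fold enrichment (horizontal) for the 403 broad domains. Domains on developmental transcription factors (34, purple) lie mostly at low enrichment and those on ribosomal protein and splicing genes (24, green) at 31.5 and above.

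In sequence, gene starts in broad domains were rich in CpG but not more so than those of other wide peaks. Within 500 bp of the start the median CpG observed over expected ratio was 0.806 (0.779 to 0.827). It was 0.818 (0.802 to 0.828) in peaks of 4 to 5 kb, 0.822 in peaks of 3 to 4 kb, 0.655 in peaks of 1 to 2 kb and 0.173 at starts without a peak. The extent of CpG-rich sequence went on growing, with a median of 2700 bp of CpG-island-like windows within 5000 bp of the start in broad domains (2570 to 2860), 2060 bp in peaks of 4 to 5 kb and 1005 bp in those of 1 to 2 kb. Of the domain itself a median of 46.7% was CpG-island-like, near the 47.8% of narrower promoter peaks. Only 9 of 403 domains had under 10% of such sequence and 1, inside Brd1 (5766 bp, fold enrichment 12.3), had none.

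Core promoter motifs were searched as exact letters on both strands in the 250 bp before to 50 bp after each start. The TATA box letters TATAAA were found at 36 of 397 starts in broad domains (9.07%, 6.62 to 12.3%), 6.77% of those in narrower peaks and 12.7% of all protein-coding starts. The letters CCAAT were at 39.0%, 37.7% and 38.6%, and the GC box GGGCGG at 66.2%, 64.2% and 43.7%. For the E-box CACGTG the shares were 12.3%, 10.1% and 7.82%. For CCGGAAG, the core of ETS factor sites, they were 11.3% (8.58 to 14.8%), 16.5% (15.8 to 17.1%) and 11.0%, and for the palindromic site of NRF1 0.756%, 2.00% and 1.25%. For the ETS letters alone the interval of the broad domains lay wholly below that of narrower peaks. No searched string contains another, and a match does not show binding.

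Broad domains had other H3K4me3 peaks close by. Another peak lay within 5000 bp of 173 of the 333 promoter domains (52.0%) and of 3419 of 11356 narrower promoter peaks (30.1%), a difference of 21.8 percentage points (16.4 to 27.2). The share was 44.2% in peaks of 4 to 5 kb and 26.4% in those of 2 to 3 kb. In 6 cases the neighbour within 20000 bp was itself a broad domain, at Jade1 (1730 bp apart), Gnas (1883 bp), Hnrnpf (3960 bp), Sox2 (4985 bp, next to a domain on Gm42693), Zbtb45 with Trim28 (11697 bp) and Ier2 with Nacc1 and Trmt1 (18970 bp). Where the caller split a wide stretch into several peaks, the width rule misses it.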

How the data were processed

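H3K4me3 ChIP-seq and ATAC-seq peak lists of F123 cells were used, 1 list per assay for 2 replicates. For H3K4me3 the authors ran the uniform ENCODE pipeline for histone marks, with its default settings. The aligner and the peak threshold are not given in the sources used here, and the labels name mm10. The deposited columns hold positions, the fold enrichment (signal as a ratio to local background), p and q on a −log10 scale, the summit and a display score. Neither that score nor p was used. For ATAC-seq the authors mapped reads to mm10 with Bowtie 1.1.2, moved read ends by 4 bp for the Tn5 insertion, called peaks with MACS2 2.1.1.20160309 and kept pooled peaks found in both replicates with bedtools 2.27.1. That list holds positions only. The caller's threshold and the merging of adjacent enriched windows set every width.

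Peaks of at least 5000 bp on chromosomes 1 to 19 were intersected with gene starts of GENCODE M21 and with ATAC-seq peaks (at least 1 bp shared). Narrower promoter peaks were those under 5000 bp that cover a protein-coding gene start. Base composition was read from GRCm38.p6, whose primary chromosomes are those of mm10, and RefSeq starts came from a table of the same build. Shares have 95% Wilson intervals, their differences Newcombe intervals and medians order-statistic intervals. No test was run, since regions are not replicates. Overlaps and merging were checked on simulated data against bedtools. Python 3.11.15, numpy 2.4.6 and pandas 2.3.3 were used.

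The members, lists and settings were chosen with earlier results of these data known. Named were the genes of the 15 widest domains, the 3 peaks on each side of the width limit, up to 8 list members by width, cell type markers, the widest domains without a start, those densest in ATAC-seq peaks, those with the most gene starts, and the 5 largest and smallest downstream shares. Other genes were named after their values were seen. In the alternatives the width limit, the overlap, the gene starts, the ATAC-seq peaks and the windows were changed. The PLAC-seq and input samples were not used here, and some genes that the naming rule covers are not reported here.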

Additional observations from a re-analysis of the deposited data

Results flagged for a closer look

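Chromosome X was outside the comparisons above, and 10 of its H3K4me3 peaks were at least 5000 bp wide. They are listed because the choice of autosomes left them out. The peaks on Ddx3x (6073 bp), Stag2 (5751 bp), Bcorl1 (6195 bp), Sox3 (5386 bp) and Pdha1 (5271 bp) covered a protein-coding gene start. The other 5 did not, and the widest of all on this chromosome, 8778 bp, was one of them.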

How the results depend on the processing

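The number of domains depended on how width was taken. It was 403 as reported, 1077 with at least 4000 bp, 167 with at least 6000 bp, and 692 or 865 when peaks no more than 500 or 1000 bp apart were merged first. With the last setting 860 genes had their start in a broad domain. The share of domains covering a protein-coding gene start was 93.3% with all transcript starts and 88.8% with genes of all types, and between 82.6 and 83.6% with the other limits. When only the wider 50% of ATAC-seq peaks were kept, the median was 2 peaks per domain and 0.345 per kb. The share of gene starts with an ATAC-seq peak was 96.2% within 500 bp and 77.3% over all transcript starts. The downstream share was 63.3% with transcript starts averaged. The CpG ratio was 0.832 within 250 bp and 0.742 within 1000 bp of the start. The other alternatives stayed within the interval of the reported value or, for counts, within 1.5 times of it. No paired analysis was possible because each list pools both replicates, and for the same reason no replicate could be left out. Library depth is unknown, so neither the extent of weak flanks nor small ATAC-seq peaks can be judged against it.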
